A study of Homo sapiens with 3 samples.

Results

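The heat shock factors and the proteins that hold or release them were examined in HEK-293T cells kept without stress, a line of transformed cells from human embryonic kidney. Probe sets were taken where the annotation of the array listed HSF1, HSF2, HSF4, HSF5, HSBP1, SIRT1, EP300 or CREBBP. This gave 13 of 54675 probe sets, for 7 of the 8 listed genes among 19775 genes with a probe set of their own. None of the 13 was shared with another gene. No probe set was listed for HSF2, whose level was therefore not analysed here. Total RNA of 3 cultures was hybridised to Affymetrix Human Genome U133 Plus 2.0 arrays, 1 array per culture. All cultures were untreated HEK-293T cells of the same ATCC line, grown in DMEM with serum, and the labels list an inserted temperature sensitive SV40 T-antigen gene for each of them. They differed in seeding and harvest. One 48 h culture was started with 375000 cells and is called lightly seeded here, and the other with 750000 and is called heavily seeded. The 24 h culture was started with 1000000 cells. The time of harvest cannot be told apart from seeding or a batch, and no heat-shocked cells are among these arrays.

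HSF1 is the transcription factor that switches on the chaperone genes under heat. In resting cells it is held as an inactive monomer by chaperones, and under stress it forms trimers that bind heat shock elements, short inverted GAA repeats in the promoters of chaperone genes. HSF2 acts mainly in development and can join HSF1 in mixed trimers, HSF4 serves the developing lens, and HSF5 is known from male germ cells. HSBP1 is a small coiled-coil protein that binds the trimer of HSF1 and restrains it. The acetyltransferases EP300 and CREBBP add acetyl groups to HSF1, which weakens its grip on DNA, and the deacetylase SIRT1 removes them.

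The DNA that these factors read is shown first, with the core of the heat shock element (GAANNTTC, which reads the same on both strands) in capitals. The sequences are the 250 bases before a transcription start, from RefSeq on GRCh38.p14. HSPA6 was chosen as a strictly stress-inducible HSP70 gene (chr1:161524290-161524539, + strand). DNAJB1 was chosen as a co-chaperone gene that was above background in these cells (chr19:14518398-14518647, - strand). Its window is that of the one of its 3 listed starts that holds this core.
HSPA6: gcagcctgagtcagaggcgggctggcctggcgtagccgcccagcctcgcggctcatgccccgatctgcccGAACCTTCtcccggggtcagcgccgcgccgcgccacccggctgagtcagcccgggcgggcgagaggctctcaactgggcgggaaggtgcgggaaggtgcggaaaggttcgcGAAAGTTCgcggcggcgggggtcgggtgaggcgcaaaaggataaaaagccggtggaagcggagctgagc
DNAJB1: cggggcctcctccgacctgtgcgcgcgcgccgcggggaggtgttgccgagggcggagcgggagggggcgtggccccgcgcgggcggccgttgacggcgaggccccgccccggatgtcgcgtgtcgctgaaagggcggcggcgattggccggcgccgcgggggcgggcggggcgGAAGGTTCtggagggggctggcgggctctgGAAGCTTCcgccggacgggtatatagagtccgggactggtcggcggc
Both windows hold the core 2 times. It starts 180 and 69 bases before the start of HSPA6, and 77 and 47 bases before that of DNAJB1. Of the 16 genes with a window in a list of heat shock genes known to be driven by HSF1, 10 hold the core, in 10 of their 22 windows, against 5.78% of all 35116 windows. That list was put together from textbook knowledge of these genes. Other arrangements of the GAA repeats were not searched, so a window without the core may still hold an element.

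Windows of the factors and regulators themselves were searched in the same way. They were listed for 7 of the 8 genes, HSF2 among them and HSF1 not, and 0 of their 10 windows (the 2 of HSF2 overlap) hold the core. At a share of 5.78% over all windows, 10 windows are too few to set this count apart from the rest, and it says only that these letters are not within these 250 bases. The windows held 14 to 46 CpG dinucleotides each with a median of 28.5, where the median was 11 over all windows and 20 over those of the heat shock genes. Of all windows, 44.8% hold at least 14. HSBP1 (chr16:83807728-83807977, + strand) and HSF5 (chr17:58488409-58488658, - strand) are shown with each CpG in capitals, as a gene with high signals and a gene not above background.
HSBP1: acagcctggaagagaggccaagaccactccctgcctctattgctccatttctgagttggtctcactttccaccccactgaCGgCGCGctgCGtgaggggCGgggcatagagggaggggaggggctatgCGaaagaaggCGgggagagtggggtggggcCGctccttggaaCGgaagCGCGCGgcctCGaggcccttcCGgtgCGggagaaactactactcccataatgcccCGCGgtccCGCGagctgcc
HSF5: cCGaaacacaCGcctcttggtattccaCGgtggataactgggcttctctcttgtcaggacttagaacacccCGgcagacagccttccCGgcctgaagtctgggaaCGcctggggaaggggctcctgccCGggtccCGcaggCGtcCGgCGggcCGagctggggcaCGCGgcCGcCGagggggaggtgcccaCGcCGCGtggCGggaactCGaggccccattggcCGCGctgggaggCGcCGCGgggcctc
The window of HSBP1 holds 19 CpG and that of HSF5 holds 26. The number of CpG therefore did not follow the order of detection in this pair, which was picked for its contrast in detection.

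**Figure D1:**
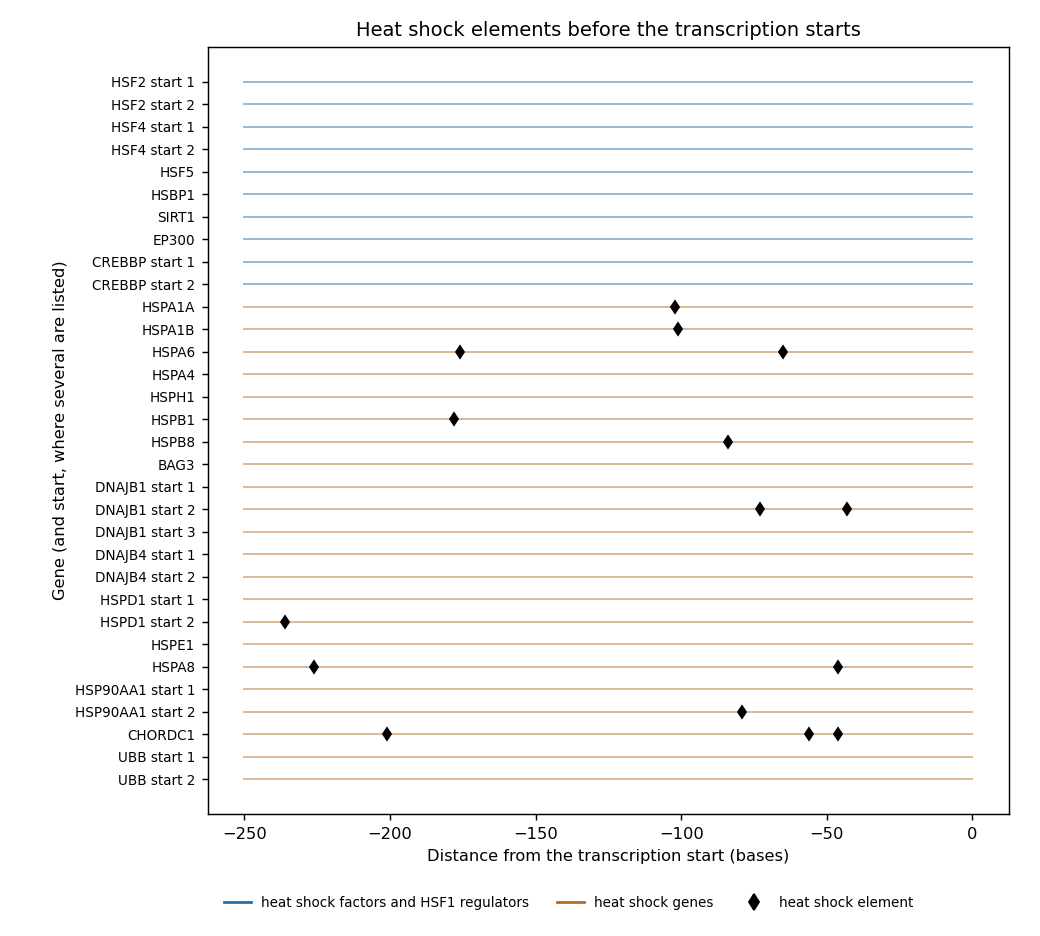
Matches to the core of the heat shock element before transcription starts. Blue lines are the heat shock factors and HSF1 regulators, and brown lines the heat shock genes. The horizontal axis is the distance from the start in bases and each diamond is 1 match to the core of the element; 0 of 10 blue windows and 10 of 22 brown windows hold one.

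The deposited values are MAS5 signals, an intensity on a linear scale, which the authors had scaled to the same trimmed mean on each array. Above background here means a signal over the 95th percentile of a reference on each of the 3 arrays. The reference was made of 324 probe sets for genes of other tissues and for smell and taste receptors. These thresholds were 105 in the lightly seeded 48 h culture, 84.3 at 24 h and 123 in the heavily seeded 48 h culture. RNA integrity numbers were 9.5 to 10.0, and the ratios of 3' to 5' control probe sets were 0.876 to 0.930 for GAPDH and 1.10 to 1.18 for ACTB. Of the markers of the nephron lineage, WT1, SALL1 and EYA1 were above background and PAX2 and LHX1 were not. The brightest probe set of PAX2 exceeded the threshold in the 24 h and heavily seeded 48 h cultures, at 129 and 146. Markers of mature tubule and podocyte were above background on all 3 arrays for 1 of 7 genes (LRP2), and those of fibroblasts for 1 of 5 (COL1A1). Those of endothelium, leukocytes and testis germ cells were so for 0 of 5, 0 of 4 and 0 of 5. CD3E, PRM1 and TNP1 of these markers also belong to the background reference. In bulk RNA, fewer cells that express a gene and less RNA per cell cannot be told apart.

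Of the 13 probe sets, 9 were above background, where the share over all probe sets was 37.9%. By gene, 5 of the 7 measured were above background, where the share over all genes was 51.1%. HSF1, HSBP1, SIRT1, EP300 and CREBBP were above it, and HSF4 and HSF5 were not. A probe set's signal depends on its own probes, so signals of different probe sets are not compared with each other. The number of arrays limits the precision, and each SD below includes the differences between the cultures. Whether the cultures were separate passages is not given in the sources used here, so the spread and the p-values may measure technical differences only.

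**Figure D2:**
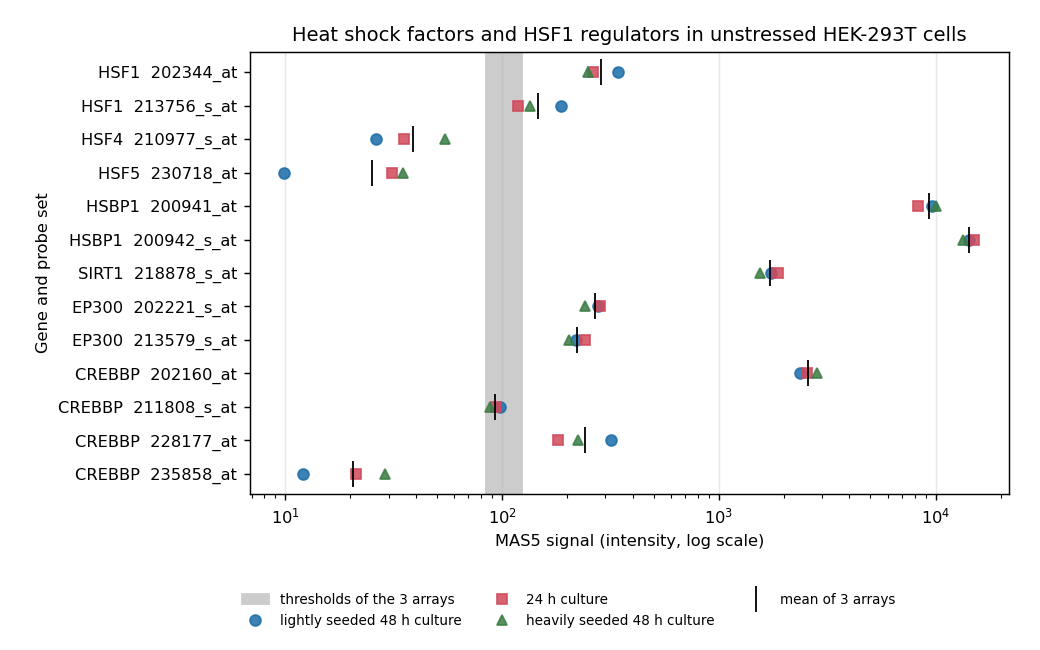
MAS5 signals of the 13 probe sets for heat shock factors and HSF1 regulators in 3 cultures of unstressed HEK-293T cells. Signals are on the horizontal axis (intensity, log scale), coloured symbols show the arrays and a tick their mean, and the grey band covers the thresholds of 84.3 to 123; HSF4, HSF5 and 1 probe set of CREBBP lie left of the band and another of CREBBP lies within it.

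HSF1, the target of the positive control siRNAs in the study, was above background on both of its probe sets, by a small margin. Its first probe set (202344_at) gave 343 in the lightly seeded 48 h culture, 262 at 24 h and 249.8 in the heavily seeded 48 h culture, with a mean of 285 ± 50.7 (SD, n = 3 arrays). The other (213756_s_at) gave 186, 119 and 135 in the same order, with a mean of 147 ± 35.3. Both were highest in the lightly seeded 48 h culture and all 6 signals exceeded their thresholds. The margin was narrowest on the second probe set in the heavily seeded 48 h culture, at 1.09 times the threshold. With the 99th percentile of the reference as threshold neither probe set of HSF1 was above background.

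HSF1, detected by a small margin, varied more between the cultures than most detected probe sets did. The SD of its log2 signals was 0.25 and 0.34, where the median over all probe sets above background was 0.15, and 75.6% and 87.7% of these had a smaller SD. On the scale of log2(signal + 18.6), which the comparison of cultures uses and which shrinks differences of low signals, the first probe set was lower by 0.43 in the heavily than in the lightly seeded 48 h culture, and the second by 0.42. The median size of this difference over detected probe sets was 0.15 and its 95th percentile 0.60, so both differences were larger than the median and under the 95th percentile. Over probe sets not above background the median was 0.55, and HSF1 was not compared with detected probe sets of similar signal. With 1 array each, the differences of HSF1 have no test.

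HSF4 and HSF5, the other factors of the family that were measured, stayed at the level of the reference. The single probe set of HSF4 gave 26.2 in the lightly seeded 48 h culture, 35.2 at 24 h and 54.8 in the heavily seeded 48 h culture. That of HSF5 gave 9.89, 31.0 and 34.8. Every one of these 6 signals was at most 0.445 times the threshold of its array. The same 2 probe sets were not above background under any of the alternatives tried. Each gene rests on 1 probe set, so a transcript that this probe set misses would not be seen. The related genes HSF2BP, which encodes a partner of HSF2, and HSBP1L1, a paralog of HSBP1, were also not above background on all arrays. HSF2BP gave 84.7, 93.4 and 51.2, and HSBP1L1 gave 86.7, 107 and 77.2 in the lightly seeded 48 h, 24 h and heavily seeded 48 h cultures, so the signal of each exceeded the threshold in the 24 h culture alone.

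HSBP1, the restraining partner of the HSF1 trimer, was far above background in all cultures. One probe set (200941_at) gave 9653 in the lightly seeded 48 h culture, 8315 at 24 h and 9995 in the heavily seeded 48 h culture, a mean of 9321 ± 888 (SD, n = 3 arrays). The other (200942_s_at) gave 14278, 15075 and 13410.1, a mean of 14255 ± 833. The lowest of these signals relative to its threshold was 81.1 times it. The arrays stood in opposite order on the probe sets. The 24 h culture was lowest on the first and highest on the second, and the heavily seeded 48 h culture the reverse.

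SIRT1, the deacetylase, was measured by 1 probe set (218878_s_at), which gave 1739 in the lightly seeded 48 h culture, 1878 at 24 h and 1556 in the heavily seeded 48 h culture. Its mean was 1724 ± 162 (SD, n = 3 arrays), and the lowest signal relative to its threshold was 12.6 times it. This probe set belongs to a class (marked _s_at) that can match several transcripts, and without such probe sets SIRT1 is not measured.

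EP300 was detected closer to background. Its first probe set (202221_s_at) gave 278 in the lightly seeded 48 h culture, 282 at 24 h and 242 in the heavily seeded 48 h culture, a mean of 267 ± 22.1 (SD, n = 3 arrays). The other (213579_s_at) gave 220.2, 240.2 and 204, a mean of 221 ± 18.4. The order of the arrays was the same on both, with the 24 h culture highest and the heavily seeded 48 h culture lowest. All 6 signals were above their thresholds, by 1.65 to 3.34 times. Neither probe set passed with the 99th percentile as threshold, and both are of the _s_at class.

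CREBBP, the paralog of EP300, was above background on 2 of its 4 probe sets, and these did not vary together. The first (202160_at) gave 2359.5 in the lightly seeded 48 h culture, 2564 at 24 h and 2829 in the heavily seeded 48 h culture, a mean of 2584 ± 235 (SD, n = 3 arrays). The next (228177_at) gave 318, 182 and 225, a mean of 241 ± 69.5. The lightly seeded 48 h culture was thus lowest on one and highest on the other. The SD of log2 signals was 0.13 on the first and 0.41 on the second, and 93.3% of the probe sets above background had a smaller SD than the second. The third (211808_s_at) gave 98.3, 93.7 and 88.0 and lay under the threshold except in the 24 h culture, and it was above background with the 90th percentile as threshold. The fourth (235858_at) gave 12.1, 21.2 and 28.8. Where the probes of each lie in the transcript was not analysed here.

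The 24 h culture was then compared with both 48 h cultures, to see whether the factors moved with the culture conditions. Across 22848 probe sets 69 were called (limma, adjusted p under 0.05), which is 0.302%, with 52 higher (0.228%) and 17 lower (0.0744%) at 24 h. After scaling to equal medians 13 were called, 7 higher and 6 lower. Of the 9 probe sets of the heat shock factors and regulators that were tested, 0 were called by limma, and 1 had an unadjusted p under 0.05. Of these 9, 4 were higher and 5 lower at 24 h, and their median log2 difference was -0.01, where the median over all tested probe sets was 0.00478. The other 4 had mean signals under the filter. There is 1 array at 24 h, and the fit takes its spread from the 48 h arrays and from probe sets of similar signal.

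The smallest p among them was that of HSBP1. Its first probe set was lower at 24 h by a log2 difference of -0.24 (standard error 0.09, 95% interval -0.44 to -0.04, limma, unadjusted p = 0.0202, adjusted p = 0.418). Its other probe set had the opposite sign, at 0.12 (standard error 0.09, adjusted p = 0.757). HSF1 had log2 differences of -0.15 (interval -0.82 to 0.52) and -0.37 (-1.28 to 0.54), so a fall or a rise of modest size at 24 h was not detectable with these arrays. The adjusted p in limma was 0.940 and 0.868. The sign on the first probe set rested on the lightly seeded culture, since the 24 h signal differed from it by -0.37 and from the heavily seeded 48 h signal by 0.07. On the second probe set these differences were -0.58 and -0.16. SIRT1 gave 0.19 (interval -0.08 to 0.46, adjusted p = 0.713 in limma), higher in the 24 h culture than in either 48 h culture. EP300 gave 0.11 and 0.17, both probe sets being highest in the 24 h culture, with intervals of -0.56 to 0.78 and -0.57 to 0.90. CREBBP gave -0.01 (interval -0.27 to 0.25) and -0.52 (-1.25 to 0.22), and on the first the 24 h culture lay between the 48 h cultures. Every member difference thus failed the correction, which does not show that the cultures were alike. The intervals were widest for the probe sets of low signal.

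**Figure D3:**
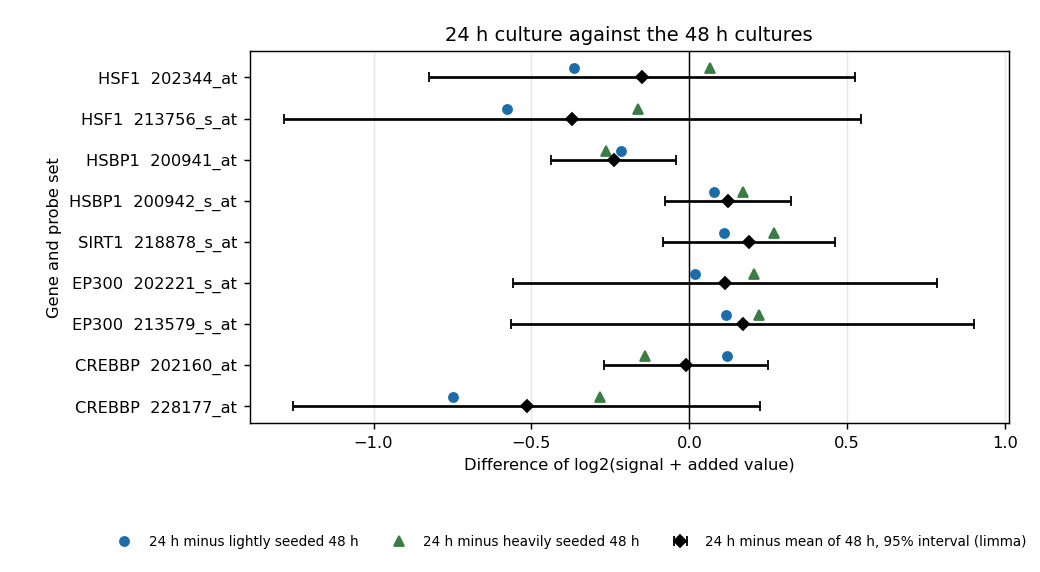
Differences between the 24 h culture and the 48 h cultures for the 9 tested probe sets of heat shock factors and regulators. The horizontal axis is the difference of log2(signal + 18.6), black diamonds with bars are the limma estimates with 95% intervals, and coloured symbols are the differences from each 48 h array; the intervals cross 0 except that of HSBP1 200941_at, which failed the adjustment over all probe sets.

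The 3 probe sets whose signals varied most like those of HSF1 (202344_at) over the 3 arrays were those of ZFAND5 (210275_s_at), PUS7L (221025_x_at) and CSNK1A1 (213860_x_at). Their log2 deviations differed from those of HSF1 by a root mean square of 0.00145, 0.00183 and 0.00314. With 3 arrays such likeness is common. Of 18241 probe sets compared, 983 lay within 0.1, and 1621 were closer to this probe set than the other probe set of HSF1 was, at 0.12.

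Genes that act on HSF1 or with it were taken from lists put together from general knowledge, with earlier results of these data known. Over all lists, 104 of 112 measured genes (92.9%) were above background, where the share over all genes was 51.1%. Since the lists were chosen in that knowledge, this contrast describes them and is no test. Of a list of chaperones that hold HSF1 and of proteins that work with these chaperones, 16 of 16 genes were above it. Each signal that follows is that of the brightest probe set of the gene, as a mean ± SD over the 3 arrays. The HSP90 genes HSP90AA1 and HSP90AB1 gave 35429 ± 1663 and 26172 ± 1360, and their co-chaperone PTGES3 gave 27893 ± 470.2. Of the kinases and phosphatases reported to act on HSF1, 25 of 25 were above background. Among them MAPK3, a kinase of the ERK pathway, gave 777 ± 72.8. The JNK kinase MAPK8 gave 1004 ± 75.4 and the p38-activated kinase MAPKAPK2 gave 412 ± 83.4. PRKCI is in this list too, and the study had selected it partly because its arrays called it present. The paper proposes that PRKCI acts on HSF1 indirectly.

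Other acetyltransferases and deacetylases were above background in 11 of 13 cases. The acetyltransferases KAT2A and KAT2B gave 961 ± 136 and 382 ± 87.8. The deacetylase genes HDAC7 and HDAC9 were not above background. Their brightest probe sets gave 84.6, 92.4 and 42.8 for HDAC7, and 110.2, 10.6 and 48.6 for HDAC9, in the lightly seeded 48 h, 24 h and heavily seeded 48 h cultures. HDAC7 thus exceeded the threshold at 24 h alone, and HDAC9 in the lightly seeded 48 h culture alone. Of the genes that regulate SIRT1 or supply its cofactor NAD, 5 of 6 were above background. The SIRT1 inhibitor CCAR2 gave 846 ± 80.8, the SIRT1 activator RPS19BP1 gave 4587 ± 124, and NAMPT, an enzyme of NAD synthesis, gave 2212 ± 202. HIC1, a repressor of SIRT1 transcription, gave 17.6, 23.7 and 12.4 and was not above background.

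Ubiquitin and SUMO enzymes or modifiers were above background in 8 of 8 cases, among them the ubiquitin ligase subunit FBXW7 at 579 ± 35.0, the ligase NEDD4 at 336 ± 27.7 and the modifier SUMO3 at 9715 ± 595. Coactivators and repressors were above it in 20 of 20 cases. SSBP1, a single-stranded DNA-binding protein, gave 25565 ± 1962, the chromatin remodeler SMARCA4 gave 3038 ± 116 and the replication protein RPA1 gave 9986 ± 1004. Partners of EP300 and CREBBP were above it in 10 of 10 cases. The coactivator-binding proteins CITED1 and CITED2 gave 1858 ± 275 and 531 ± 52.4, and the transcription factor CREB1 gave 2521 ± 344.

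The genes that HSF1 drives were above background in 11 of 14 cases. HSPA4 and HSPH1, which exchange nucleotides on HSP70, gave 7275 ± 299.8 and 11958 ± 173, and the small heat shock protein HSPB1 gave 2094 ± 417. DNAJB1, whose promoter is shown above, gave 3254 in the lightly seeded 48 h culture, 4338 at 24 h and 3089 in the heavily seeded 48 h culture. The 3 genes not above background were HSPA6, HSPB8 and CRYAB. HSPA6, whose promoter holds the same core, gave 53.5, 28.0 and 109.6 in that order. HSPB8 gave 10.2, 110.8 and 164 and so exceeded the threshold in the 24 h and heavily seeded 48 h cultures. CRYAB gave 12.9, 84.1 and 20.5, just under the threshold in the 24 h culture. The core of the element thus stood before genes on both sides of the threshold. HSPA1A and HSPA1B are listed only on probe sets shared with other genes and were not counted.

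**Figure D4:**
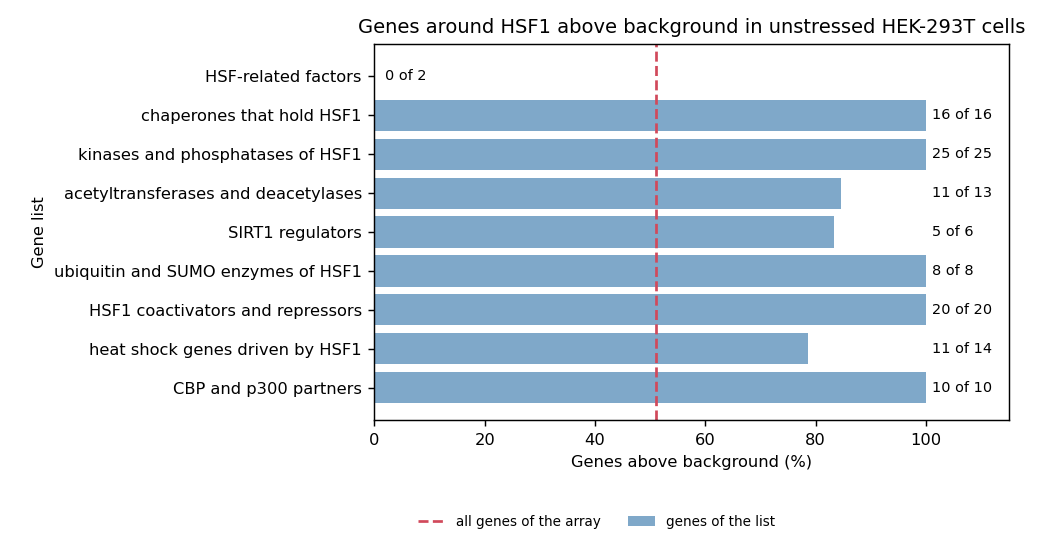
Genes around HSF1 above background in unstressed HEK-293T cells. Each bar is the share of measured genes of a list in percent, with the counts beside it. The dashed line is the share over all genes of the array, 51.1%. In 5 lists every measured gene was above background, and the lists were chosen with earlier results of these data known.

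Between 24 h and 48 h, 1 of 233 tested probe sets of these lists was called by limma, against 0.302% of all. It belongs to KAT5, an acetyltransferase of histones and other proteins, and gave 747 at 24 h against 1205 and 1718 in the lightly and heavily seeded 48 h cultures. Its log2 difference was -0.93 (standard error 0.18, limma, adjusted p = 0.0343). The call was lost after scaling to equal medians (adjusted p = 0.508) and without the mean-variance trend in limma (0.763). The other 2 probe sets of KAT5 gave log2 differences of 0.37 and -0.11 and were not called (limma, adjusted p = 0.607 and 0.879). The 3 probe sets therefore disagree in direction, and all are of a class (_x_at) that can match other genes. The median log2 difference over the lists was 0.00133, where that over all tested probe sets was 0.00478.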

How the data were processed

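Gene expression in 3 cultures of unstressed HEK-293T cells was measured on Affymetrix U133 Plus 2.0 arrays. The deposited values are MAS5 signals, an intensity on a linear scale, made by the authors with GCOS 1.0 (submitters' processing notes) and scaled to a trimmed mean of about 499.9. Absent/present calls were not used here. Probe sets were named through the platform annotation, with symbols updated by gene ID to GRCh38.p14, and 41098 probe sets list 1 gene.

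The reference for background came from 237 genes (324 probe sets, 127 of them for receptors), and 6 of its probe sets passed their own threshold. The 24 h culture was compared with the 48 h cultures by limma 3.58.1 (R 4.3.3) with a mean-variance trend after adding 18.6 (the median signal of the reference) and taking log2, over probe sets whose mean log2 signal exceeded that of the mean threshold. This scale understates changes of low signals, and 1 residual degree of freedom is left. P-values were adjusted over all probe sets (Benjamini-Hochberg). Both steps were tried on simulated data. For the comparison, the simulated noise followed the trend with signal and was alike on all arrays. The simulation therefore cannot check either assumption for these data. Promoter windows were searched for the core of the element with Python 3.11.15. Genes named were all members and, for each list, the first 3 genes above background, those not above it, the genes called between cultures and the probe sets most like HSF1. DNAJB1 was named for its promoter, and PRKCI because the study had selected it. The members and lists were chosen with earlier results of these data known. Alternatives were other percentiles, references, scalings, added values, filters and left-out arrays.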

Additional observations from a re-analysis of the deposited data

How the results depend on the processing

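Signal over background limits these results, since HSF1 and EP300 lie within a few times the threshold. With the 99th percentile 4 of the 9 detected probe sets and 3 of the 5 detected genes were above background, HSF1 and EP300 being lost. Over the whole array the counts then also fell, from 20738 to 14119 probe sets and from 10112 to 7777 genes. Without probe sets that can share sequence the member counts were also 4 and 3. SIRT1 and EP300 were lost because all their probe sets are of that kind. Over the whole array 11519 probe sets and 7384 genes were then above background. The other detection alternatives gave 9 or 10 member probe sets and 5 member genes, and with each array left out in turn 9 and 5. Pathway genes above background numbered 104, with 94 at the 99th percentile, 71 without probe sets that can share sequence and 104 to 105 with an array left out. Between 24 h and 48 h 0 member probe sets were called under every alternative fitted. Over the whole table the calls numbered 69, and 104 without the filter, 13 after scaling to equal medians and 0 without the trend (1365 at an unadjusted p under 0.05). The log2 difference of CREBBP 202160_at turned from -0.01 to 0.042 after scaling to equal medians. The median over all tested probe sets also rose under this scaling, from 0.00478 to 0.056, and the cause of the turn was not tested. Leaving out a 48 h array leaves 1 array a group and no residual degrees of freedom, so only values could be had. Without the lightly seeded culture HSF1 202344_at turned from -0.15 to 0.07, and without the heavily seeded one it was -0.37. CREBBP 202160_at turned from -0.01 to 0.12 without the heavily seeded culture and was -0.14 without the lightly seeded one. The other 7 probe sets kept their sign, EP300 202221_s_at running from 0.02 to 0.21, HSF1 213756_s_at from -0.58 to -0.16 and CREBBP 228177_at from -0.75 to -0.28. No paired analysis was possible because the groups share fewer than 2 replicate numbers.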
